A study of Mus musculus with 300 samples.

Results

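The ID family (inhibitors of DNA binding) was read from 4 of the 23354 gene rows of a single-cell expression table, namely Id4e, Id3, Id2 and Id1, which were chosen by name. ID proteins carry a helix-loop-helix domain but lack the basic region that contacts DNA, so they bind E proteins and other bHLH transcription factors and keep them off their target sites. They are textbook targets of BMP signalling through SMAD proteins, and they are known for holding progenitor cells back from differentiation. In the testis ID4 is known as a marker of spermatogonial stem cells. Id4 itself is not analysed here. The row named Id4e matched no gene symbol in the annotation, and the labels do not say which transcripts were counted in it. Should these be from Id4 or the EGFP transgene, a gradient over EGFP quartiles would be built into the grouping.

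The cells were 300 CD9-bright, ID4-EGFP-positive spermatogonia from the testes of untreated adult mice carrying an ID4-EGFP reporter. Strain and exact age are not given in the sources used here. Each of 4 preparations pooled at least 2 mice, per the labels' protocol, and single cells were captured on microfluidic chips and imaged. EGFP intensity on the chip placed each cell in a quartile, from Q1, the brightest (79 cells), through Q2 (78) and Q3 (71) to Q4, the dimmest (72). All quartiles thus hold reporter-positive cells, and there was no reporter-negative control. Values are FPKM, fragments scaled to transcript length and to the library, and levels are means of log2(FPKM + 1) over the cells of a preparation and quartile. A cell was counted as detecting a row at 1 FPKM or more. The preparation was the replicate (n = 4), and each preparation and quartile held 15 to 22 cells.

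Germ cell genes were present throughout, with Dazl, an RNA-binding protein of germ cells, detected in all 300 cells and Ddx4, a germline RNA helicase, in 299. By lists of markers for other cell types, 25 cells matched at least 1 of them, 11 of these spermatids, 9 macrophages or leukocytes, 6 pachytene spermatocytes and 1 peritubular myoid cells, with some cells on more than 1 list. Genes detected per cell ran from 2934 to 7817 and rose by 105 per quartile towards brighter cells (exact permutation of quartile labels within preparations, two-sided p = 0.0285). The depth implied by the smallest nonzero values was about 792934 fragments in the median cell (309931 to 4327310) and had a slope of 4868 fragments per quartile (exact permutation p = 0.752).

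Id4e and Id3 were each detected in about 2 in 5 cells, and Id2 and Id1 in fewer than 1 in 10. Id4e reached 1 FPKM in 122 of 300 cells (40.7%), Id3 in 114 (38%), Id2 in 28 (9.33%) and Id1 in 20 (6.67%). Among detecting cells the median was 31.8 FPKM for Id4e, 65.9 for Id3, 30.9 for Id2 and 14 for Id1. The highest single-cell value was 263 FPKM for Id4e, 472 for Id3, 433 for Id2 and 109 for Id1. Over all cells the mean of Id3 (40.8 FPKM) stood above those of Id4e (19.1), Id2 (4.60) and Id1 (1.78), though the transcript length behind the Id4e row is unknown. As log2(FPKM + 1), the order over the 4 preparations was Id3 at 2.19 ± 0.39 (SD, n = 4), Id4e at 1.90 ± 0.31, Id2 at 0.43 ± 0.22 and Id1 at 0.26 ± 0.18. The ranges of Id3 and Id4e over preparations overlapped, as did those of Id2 and Id1, and every value of the first pair lay above every value of the second. In this table a 0 says only that a row is listed at 0 in a cell. On an Id3 transcript of 1278 bases, 1 fragment was worth about 0.987 FPKM in the median cell, and 9 cells held Id3 at less than 3 fragments.

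The 3 annotated genes lie apart in the genome (GRCm38). Id1 is on chromosome 2 at 152736251 to 152737410 on the plus strand, Id2 on chromosome 12 at 25093799 to 25097140 on the minus strand, and Id3 on chromosome 4 at 136143497 to 136145755 on the plus strand. Their annotated exons overlapped no exon of another gene on either strand. The longest exact run shared between their transcripts was 19 bases, between Id2 and Id3. In the 250 bases before the RefSeq start, Id2 held 1 match to the GC-rich SMAD box GGCGCC (both strands searched), a motif known from BMP-responsive promoters and present in 9.59% of all 32851 windows of that length. Id3 held none of it and 2 overlapping matches to the Sp/KLF box GGGCGG, which 32.7% of windows hold and of which Id2 held 1. The E-box CANNTG, the site of bHLH factors, stood once before Id2 and not before Id3 (66.2% of windows), and the SMAD palindrome GTCTAGAC before neither (0.167%). These matches describe the letters of the windows and are no evidence of binding. The stretches of 30 bases around the SMAD, E-box and Sp/KLF matches are shown because they hold every match found in the windows of Id2 and Id3, with the motif in capitals, 5′ to 3′ on the gene's strand.
Id2, SMAD box, chr12:25096306-25096335, minus strand: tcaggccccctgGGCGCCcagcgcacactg
Id2, E-box, chr12:25096271-25096300, minus strand: aatttgccacccCAGCTGggctctcgcccg
Id2, Sp/KLF box, chr12:25096093-25096122, minus strand: acataaaagacgccCCGCCCggctcgcgct
Id3, Sp/KLF boxes, chr4:136143718-136143747, plus strand: gcggtgcccaGGGCGGGCGGgggtggaccc
The sequences are from RefSeq, GRCm38.p6. The stretches with Sp/KLF boxes overlap exons of their own gene in GENCODE, and the Id2 stretches with the SMAD box and E-box do not.

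Across brightness, Id4e was higher in Q1 than in all other quartiles, and Id3 differed between Q1 and Q4. Id2 and Id1 had no slope past the threshold. In limma fits over all genes that reached 1 FPKM in at least 30 cells, 2 of the 4 rows were tested, Id4e and Id3, since Id2 and Id1 fell below that minimum. Both tested rows rose with brightness, where 4.51% of the 10411 tested genes changed with the trend in either direction and 3.77% rose. Both were higher in Q1 than in Q4, where 3.25% of tested genes differed and 2.72% were higher in Q1. The split of all calls by direction depended on scaling. Of the genes called in the trend 83.6% were higher in brighter cells, and 54.4% after each mean of a preparation and quartile was centred on its median over genes, with 83.7% and 57.8% between Q1 and Q4. Centring moved the median difference of all tested genes between Q1 and Q4 from 0.10 to -0.08. After it Id4e differed by 2.92 (limma adjusted p = 4.75e-06) and Id3 by 1.62 (adjusted p = 0.0457).

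**Figure D1:**
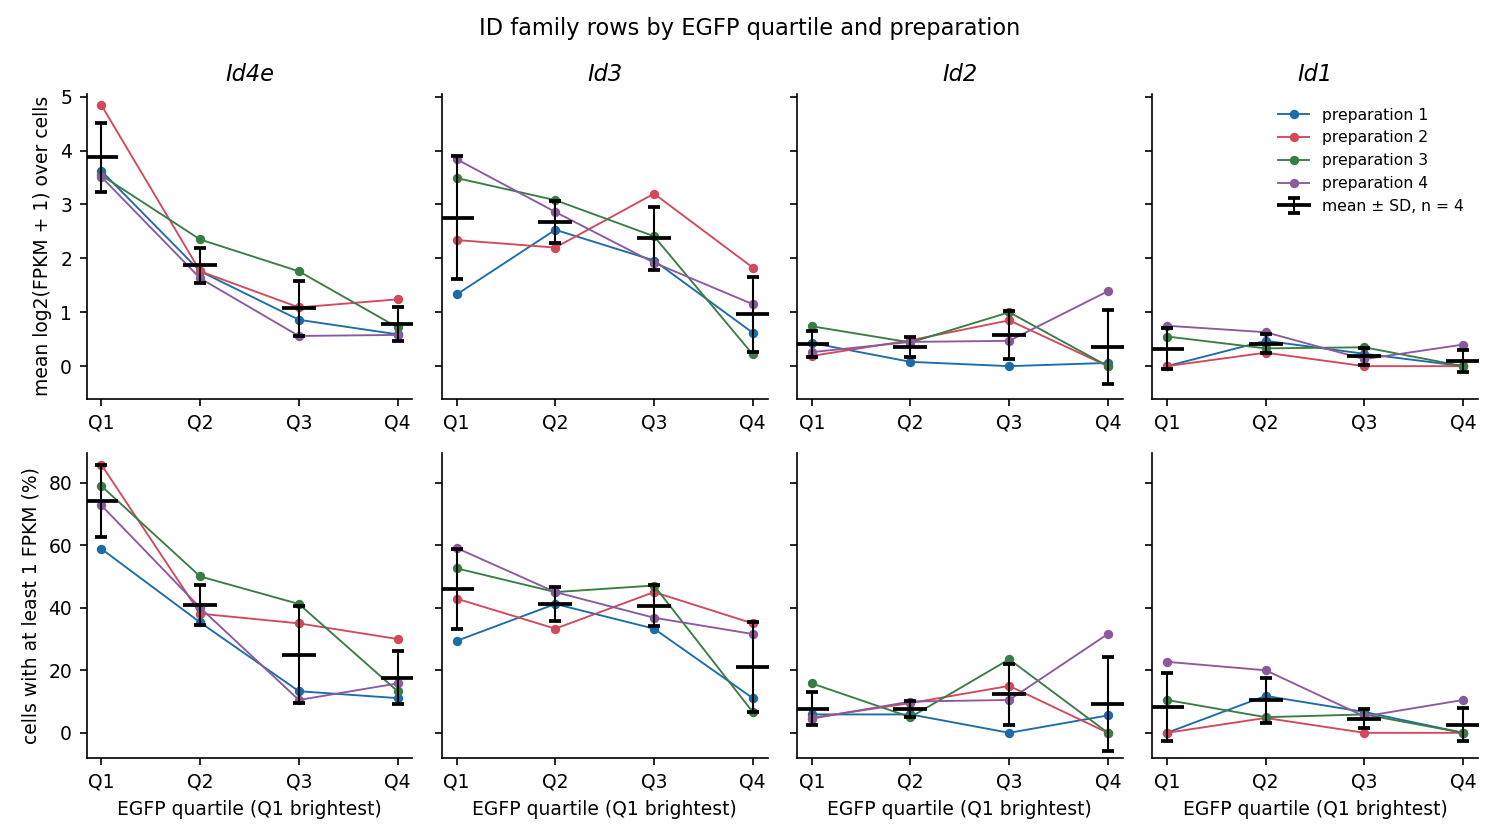
Mean log2(FPKM + 1) over cells (upper row) and percent of cells at 1 FPKM or more (lower row) for the 4 rows by EGFP quartile, with a coloured line for each preparation and black bars for the mean ± SD over the 4 preparations. Id4e falls in all 4 preparations from Q1 to Q2, whereas Id3 is lower in Q4 than in Q3 in all 4, and Id2 and Id1 stay near 0.

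In Q1 the Id4e level was 3.62, 4.84, 3.54 and 3.51 in preparations 1 to 4. It was 1.76, 1.76, 2.35 and 1.63 in Q2, then 0.86, 1.09, 1.76 and 0.56 in Q3, and 0.59, 1.24, 0.72 and 0.58 in Q4. The lowest Q1 value thus lay above the highest value of any other quartile, while Q3 overlapped both its neighbours and Q2 lay wholly above Q4. The quartile means were 3.88 ± 0.64 (SD, n = 4), 1.87 ± 0.32, 1.07 ± 0.51 and 0.78 ± 0.31. The fitted slope was 1.01 per quartile (SE 0.13, limma adjusted p = 1.23e-05) and the difference between Q1 and Q4 was 3.09 (SE 0.33, adjusted p = 2.60e-06), with the same sign in all 4 preparations. Over all tested genes the median slope was 0.03 and the median difference 0.10.

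Id4e was then compared between single quartiles. Q1 exceeded Q2 by 2.00 (SE 0.33, limma adjusted p = 0.0141), a step at which 0.0192% of genes, 2 in all, passed the threshold. The other was Rab4a, a GTPase of endosomal recycling, with 1.58 (SE 0.26, adjusted p = 0.0141), named after its value was seen. Q1 exceeded Q3 by 2.81 (adjusted p = 4.41e-05), against 0.980% of genes called. Q2 differed from Q3 by 0.81 (adjusted p = 0.611), a step at which limma called 0 genes (0%) and 767 had an unadjusted p under 0.05. Q3 differed from Q4 by 0.29 (adjusted p = 0.914; 0.00961% of genes called). The difference of 1.09 between Q2 and Q4 did not pass either (SE 0.33, limma adjusted p = 0.171, with 0.307% of genes called). The call between Q1 and Q2 was lost in 7 of 14 alternative settings, with adjusted p from 0.0214 to 0.997. Among those were the fits without preparation 1 (2.05), without preparation 2 (1.64) and without preparation 4 (2.04), and that from log2 of the mean FPKM (1.22, limma adjusted p = 0.997). In preparations 1 to 4 Q1 exceeded Q2 by 1.87, 3.07, 1.18 and 1.88.

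The share of cells that held Id4e fell from the brightest to the dimmest quartile. Id4e was detected in 59 of 79 cells in Q1, 32 of 78 in Q2, 18 of 71 in Q3 and 13 of 72 in Q4. As means over preparations these shares were 74.1% ± 11.5 (SD, n = 4), 40.8% ± 6.40, 25% ± 15.4 and 17.6% ± 8.51. The slope was 18.5 percentage points per quartile, positive in 4 of 4 preparations (exact permutation within preparations, two-sided p = 3.01e-05, adjusted over the 4 rows 0.000121). Within detecting cells the level was 5.25 ± 0.73 (Q1), 4.59 ± 0.38 (Q2), 4.56 ± 1.30 (Q3) and 4.50 ± 0.72 (Q4), with a slope of 0.229 (exact permutation p = 0.149). With detection set at 0.1 FPKM that slope was 0.378 (adjusted exact permutation p = 0.0316). Of all Id4e signal, the quartiles from Q1 to Q4 held 57%, 23.9%, 11.8% and 7.29%. Single dim cells still reached 147 FPKM in Q4, the same as the highest cell in Q1, and the highest of all, 263 FPKM, was in Q2. Conversely, 20 of the 79 brightest cells held Id4e below 1 FPKM.

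**Figure D2:**
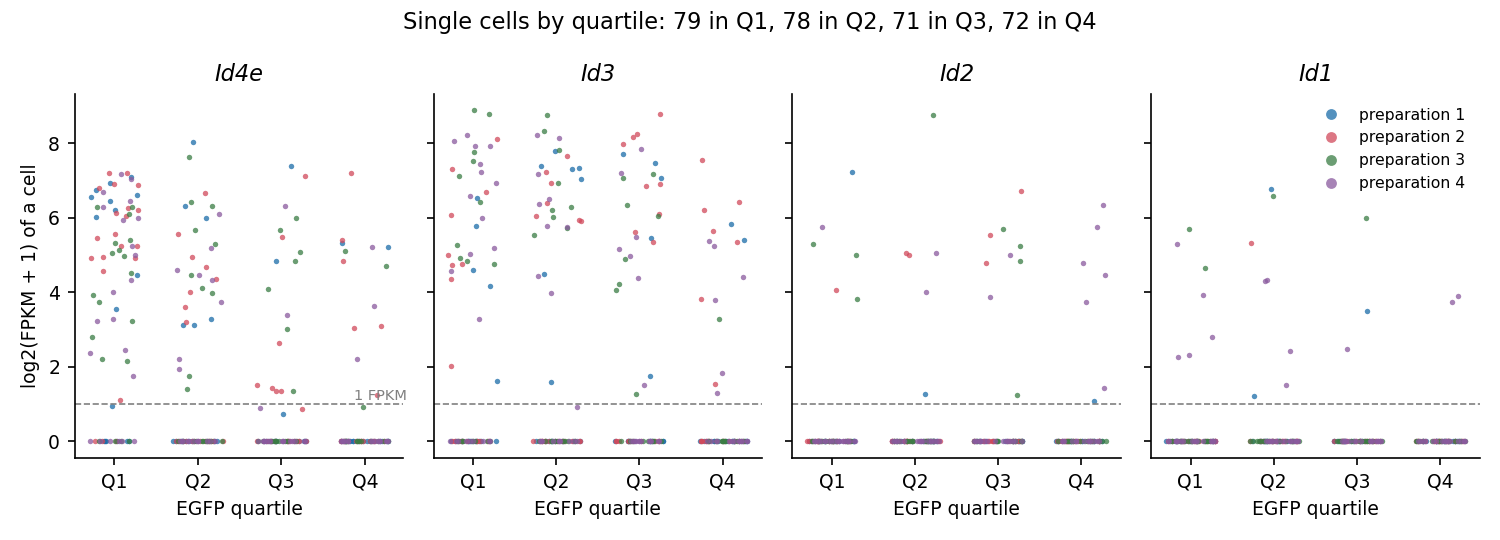
Level of each row in each of the 300 cells, as log2(FPKM + 1), by EGFP quartile and coloured by preparation, with a dashed line at 1 FPKM. Most cells lie at 0, the points of Id4e above the line thin out from 59 in Q1 to 13 in Q4, and those of Id3 thin out mainly in Q4.

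Id3, the most abundant of the annotated members here, is known as a BMP target in many progenitor cells. Its level in preparations 1 to 4 was 1.33, 2.34, 3.49 and 3.84 in Q1 and 2.53, 2.20, 3.08 and 2.86 in Q2. It was 1.96, 3.20, 2.41 and 1.92 in Q3 and 0.62, 1.83, 0.22 and 1.15 in Q4. The 3 brighter quartiles overlapped throughout, and every Q4 value lay below its own preparation's values in the other quartiles. Across preparations Q4 overlapped Q1, since preparation 2 in Q4 exceeded preparation 1 in Q1. Preparation 1 held its lowest value outside Q4 in the brightest quartile, unlike preparations 3 and 4, where Q1 was highest.

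The quartile means of Id3 were 2.75 ± 1.14 (SD, n = 4), 2.67 ± 0.39, 2.37 ± 0.59 and 0.96 ± 0.69. The slope was 0.57 per quartile (SE 0.15, limma adjusted p = 0.0218), and Q1 exceeded Q4 by 1.79 (SE 0.43, adjusted p = 0.0198), by 0.71, 0.51, 3.27 and 2.68 in preparations 1 to 4. Q2 exceeded Q4 by 1.71 (adjusted p = 0.0721; 0.307% of genes called) and Q3 exceeded Q4 by 1.42 (adjusted p = 0.558), both in 4 of 4 preparations. The difference between Q1 and Q2 was 0.08 (adjusted p = 0.994). The call rests on preparations 3 and 4. Without preparation 3 the slope was 0.41 (adjusted p = 0.216) and without preparation 4 it was 0.46 (adjusted p = 0.196), with Q1 above Q4 by 1.30 and 1.50. Over all 14 alternatives the adjusted p of the slope ran from 0.0105 to 0.216, and the call was kept in 8. Fitted without the preparation as a block, the slope had an adjusted p of 0.0679. With a covariate for the number of detected genes the slope was 0.77 (adjusted p = 0.0179), and without the 25 cells that matched another cell type it was 0.63 (adjusted p = 0.0128).

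Id3 was detected in 37 of 79 cells in Q1, 32 of 78 in Q2, 29 of 71 in Q3 and 16 of 72 in Q4. The mean shares were 46% ± 12.9 (SD, n = 4), 41.1% ± 5.50, 40.6% ± 6.53 and 21.1% ± 14.3. The slope of the share was 7.53 percentage points per quartile (exact permutation p = 0.00570, adjusted 0.0114, positive in 4 of 4 preparations), and 5.51 without preparation 3 (adjusted p = 0.0709). Without preparation 4 that call was lost too (adjusted exact permutation p = 0.0966). In detecting cells the Id3 level was 5.78 ± 0.98 (Q1), 6.46 ± 0.32 (Q2), 5.84 ± 0.91 (Q3) and 4.44 ± 1.14 (Q4), with a slope of 0.463 (exact permutation p = 0.0824, adjusted 0.149). By signal, Q4 held 5.45% of all Id3 FPKM, against 35.1% in Q1, 33.1% in Q2 and 26.3% in Q3.

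The shapes of the Id4e and Id3 gradients were set against each other directly, though that of Id4e may be built into the grouping. The slope of Id4e exceeded that of Id3 by 0.442 per quartile, which did not pass the threshold (exact permutation p = 0.135, adjusted over 6 pairs of rows 0.161, positive in 3 of 4 preparations). At the step from Q2 to Q1, Id4e gained 1.92 ± 1.25 (SD, n = 4) more than Id3, in 4 of 4 preparations (exact permutation p = 0.0259, adjusted over the 3 steps 0.0778). From Q4 to Q3, Id4e gained less than Id3 in all 4 preparations, by -1.13 ± 0.305 (exact permutation p = 0.232, adjusted 0.348). This comparison of steps was added after the values were seen, and none of the 3 steps passed the threshold after adjustment. The relabelings shuffled all 4 quartiles, so the null of each step also held the differences between other quartiles. Its p therefore does not measure the step's own spread over preparations, and the test cannot decide whether a single step differed.

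Id2, known outside the germline from lymphoid and myeloid cells, had no slope past the threshold in any quantity tested. Its level in preparations 1 to 4 was 0.43, 0.19, 0.74 and 0.26 in Q1 and 0.08, 0.48, 0.44 and 0.45 in Q2. It was 0.00, 0.85, 1.00 and 0.47 in Q3 and 0.06, 0.00, 0.00 and 1.39 in Q4. The quartiles overlapped throughout, and the high Q4 value of preparation 4 came from 6 of its 19 cells. In the limma fit without the minimum, where 1.54% of 17752 genes were called in the trend and 0.997% between Q1 and Q4, the Id2 slope was -0.01 (SE 0.08, adjusted p = 0.973). Its share of cells was 7.74%, 7.60%, 12.3% and 9.28% from Q1 to Q4, with a slope of -0.928 percentage points (exact permutation p = 0.652). Id2 was detected in 6, 6, 9 and 7 cells, so only large differences would be detectable.

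Id2 was also found in cells with leukocyte genes. Of the 9 cells that matched the macrophage or leukocyte list, 6 held Id2 (66.7%), against 21 of the 275 cells that matched no list (7.64%). Those 9 cells carried 41% of all Id2 FPKM, but 1 of them, the highest cell at 433 FPKM, held 31.4% alone. Without that cell the share of the other 8 was 14.1%. Their Lyz2, a macrophage lysozyme, ran from 122 to 6127 FPKM (median 1326), whereas its median was 0 in the cells that matched no list. Tyrobp, a myeloid signalling adaptor, was detected in 8 of the 9. Both genes are on the list that picked these cells. Their values thus describe the choice and are no independent evidence of cell type. Germ cell transcripts were also present in all 9, with Dazl at 701 to 1213 FPKM (median 904, against 1058 in the cells that matched no list) and Ddx4 at 20.1 to 554 (median 134, against 306). The protocol excluded capture sites with more than 1 cell by imaging, and no doublet caller was run. Id4e and Id1 lay below 1 FPKM in all 9, and Id3 was detected in 2. The 9 cells fell 1, 3, 2 and 3 in Q1 to Q4, and 6 of them came from preparation 3. Without the 25 matching cells the Id2 means were 0.37 ± 0.16 (SD, n = 4), 0.27 ± 0.26, 0.42 ± 0.35 and 0.29 ± 0.58 from Q1 to Q4, with a slope of 0.00768 (exact permutation p = 0.923).

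Id1, the family member most often used as a readout of BMP signalling, was the rarest row. It was detected in 7 cells of Q1, 8 of Q2, 3 of Q3 and 2 of Q4, and 12 of its 20 cells came from preparation 4. Its level in preparations 1 to 4 was 0.00, 0.00, 0.55 and 0.75 in Q1 and 0.47, 0.25, 0.33 and 0.63 in Q2. It was 0.23, 0.00, 0.35 and 0.13 in Q3 and 0.00, 0.00, 0.00 and 0.40 in Q4. In Q2 every preparation held some Id1, and in Q4 only preparation 4 did. The slope was 0.09 per quartile (SE 0.04, limma without the minimum, adjusted p = 0.385). The slope of its share of cells was 2.30 percentage points per quartile, which did not pass the threshold (exact permutation p = 0.0604, adjusted 0.0805). That share passed it when preparation 1 was left out (2.89, adjusted p = 0.0382). None of its 20 cells was among the 25 that matched another cell type.

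The slope of Id4e exceeded those of Id2 by 1.02 (exact permutation, adjusted over 6 pairs p = 0.000380) and of Id1 by 0.918 (adjusted p = 0.000109), each in 4 of 4 preparations. The slope of Id3 exceeded that of Id2 by 0.576 and that of Id1 by 0.476 (exact permutation, adjusted p = 0.0162 for each). Those Id3 differences lost the call without preparation 3 or without preparation 4, falling as low as 0.355 against Id2 and 0.339 against Id1. Id2 and Id1 differed by -0.101 (exact permutation p = 0.326). All these are absolute slopes, and rows at 0 in 272 (Id2) and 280 (Id1) of 300 cells can have only small ones. They do not compare relative changes. The comparisons with Id4e also carry the limit that its gradient may be built into the grouping. By signal, Q1 to Q4 held 26.6%, 53.9%, 14.6% and 4.91% of all Id1 FPKM, of which 10 cells held 88.3%. For Id2 these shares were 21.9%, 39.5%, 24.5% and 14.1%, and for Id3 Q4 held 5.45%.

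Cells that held none of the 4 rows became more frequent as brightness fell. They numbered 11, 20, 28 and 38 from Q1 to Q4 (13.9%, 25.6%, 39.4% and 52.8%). Cells with 2 or more rows numbered 35 of 79 in Q1 and 4 of 72 in Q4. Both counts include Id4e, detected in 59, 32, 18 and 13 cells from Q1 to Q4, whose gradient may be built into the grouping. Id3 was detected in 37, 32, 29 and 16 cells, Id2 in 6, 6, 9 and 7, and Id1 in 7, 8, 3 and 2. No count without Id4e was made. Of all 300 cells, 132 held 1 row, 62 held 2, 8 held 3 and 1 cell, in Q1, held all 4. Preparation 1 had 49.3% of cells with no row, against 25% to 32.4% in the others. It had the fewest genes per cell (mean 4368) and a mean implied depth of 845339 fragments. Preparation 2 had the lowest implied depth (mean 659997) and 25.6% of cells with no row. Whether either measure bears on the share was not tested.

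**Figure D3:**
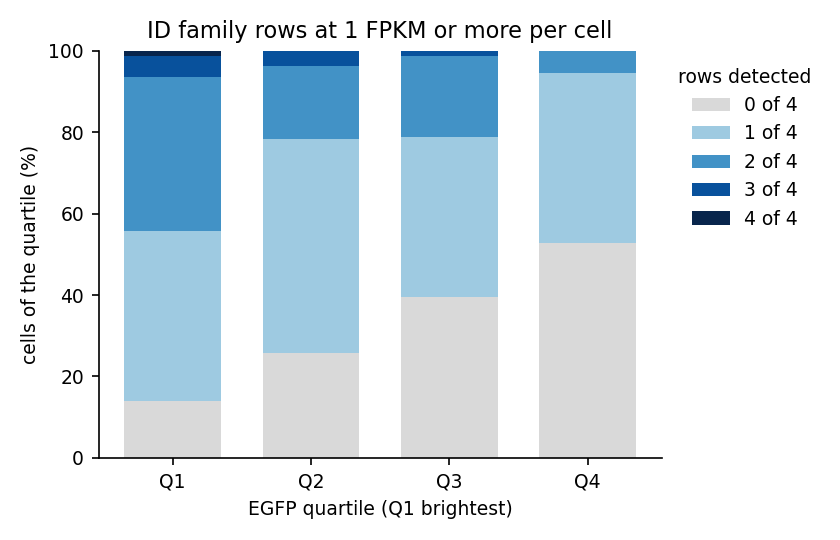
Percent of cells of each EGFP quartile with 0, 1, 2, 3 or 4 of the ID family rows at 1 FPKM or more, all preparations together. The grey share without any row grows from 13.9% in Q1 to 52.8% in Q4. All shares include Id4e, whose gradient may be built into the grouping.

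Within single cells the rows were at most weakly correlated with each other. Id4e and Id3 were found together in 53 cells, Id4e without Id3 in 69, Id3 without Id4e in 61 and neither in 117. In Q1 Id3 was detected in 52.5% of cells with Id4e and in 30.0% of those without it. In the other quartiles those shares were 40.6% and 41.3% (Q2), 38.9% and 41.5% (Q3), and 15.4% and 23.7% (Q4), and how the quartiles differ in this was not tested. Pearson's r between Id4e and Id3 across the cells of a preparation was 0.08, -0.06, 0.10 and 0.31 in preparations 1 to 4. Its mean of 0.11 was 0.04 when taken within quartiles. For the other 5 pairs the mean r lay between -0.06 and 0.06. All these values come from sparse single-cell data, in which cells share chips and depth, and are given as a description without a test.

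The genes whose levels tracked each row across cells were chosen by their mean r over the 4 preparations, with 1 sign in all 4. Genes at a mean r of 0.3 or more numbered 14 of 10411 for Id4e, 1 for Id3, 2 for Id2 and 0 for Id1. Within quartiles the numbers were 0, 0, 2 and 0.

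The highest for Id4e was Nefm, a neurofilament subunit, with a mean r of 0.41 (0.26, 0.48, 0.35 and 0.56 in preparations 1 to 4) and 0.20 within quartiles. Next came Dusp6, a phosphatase that acts on ERK (0.38), Arhgap26, a GTPase-activating protein (0.37), Bhlhe41, a bHLH repressor (0.37), and Egr2, a zinc-finger factor of the early growth response (0.35). Within quartiles these were 0.21, 0.16, 0.16 and 0.20. Their own differences between Q1 and Q4 were 3.82 (Nefm), 4.29 (Dusp6), 2.89 (Arhgap26), 2.09 (Bhlhe41) and 2.40 (Egr2). These are given as a description, since the genes were chosen by their likeness to a row that itself fell from Q1 to Q4. At the other end were Ndrg4 (-0.26), Stmn1, a microtubule-destabilising protein (-0.25), and Larp1b (-0.25).

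Id3 shared 3 of its 5 highest genes with Id4e. Its list was Rasgrp2, a guanine nucleotide exchange factor (0.31), Dusp6 (0.30), Jak1, a cytokine receptor kinase (0.25), Nefm (0.25) and Arhgap26 (0.24), with 0.24, 0.22, 0.16, 0.16 and 0.16 within quartiles. In preparation 2 all 5 stood between 0.09 and 0.13. Their own differences between Q1 and Q4 were 2.51 (Rasgrp2), 4.29 (Dusp6), 1.06 (Jak1), 3.82 (Nefm) and 2.89 (Arhgap26). The overlap with Id4e is a description, since both rows and these genes were higher in Q1 than in Q4. The lowest were Efcab10 (-0.28), Upp1, a uridine phosphorylase (-0.26), and Pabpc1, the poly(A)-binding protein (-0.23). Q1 minus Q4 was -2.84 for Upp1 and -0.09 for Pabpc1.

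Id2 was most correlated with Creg1, a lysosomal glycoprotein (mean r 0.35, and 0.34 within quartiles), which was 0.26 without the 25 cells matching another cell type. Taok3, a kinase, followed with 0.27, then Diap2 with 0.26, Pigo with 0.24 and Cyld, a deubiquitinase, with 0.24. In preparation 1 these 4 stood at 0.55, 0.53, 0.47 and 0.36, values that rest on 3 cells with Id2. Their lowest values in any preparation were 0.10, 0.06, 0.01 and 0.09. Diap2 was detected together with Id2 in 8 cells and Pigo in 6. The lowest were Cwc15 (-0.24), Trip12 (-0.21) and Mrpl14 (-0.20). Id2 also had a mean r of 0.20 with the summed macrophage or leukocyte markers (0.03, 0.00, 0.39 and 0.38 in preparations 1 to 4), against -0.05 for Id4e, -0.09 for Id3 and -0.06 for Id1.

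For Id1 the highest were Dnajc14 (0.25), Ppip5k1 (0.24), Gal3st3 (0.24), Coq6 (0.23) and Dph1 (0.22), and the lowest Rpl7 (-0.21), Rps15a-ps6 (-0.20) and Tsg101 (-0.19). Its r in preparation 2 rests on 1 cell with Id1 and in preparation 1 on 3.

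**Figure D4:**
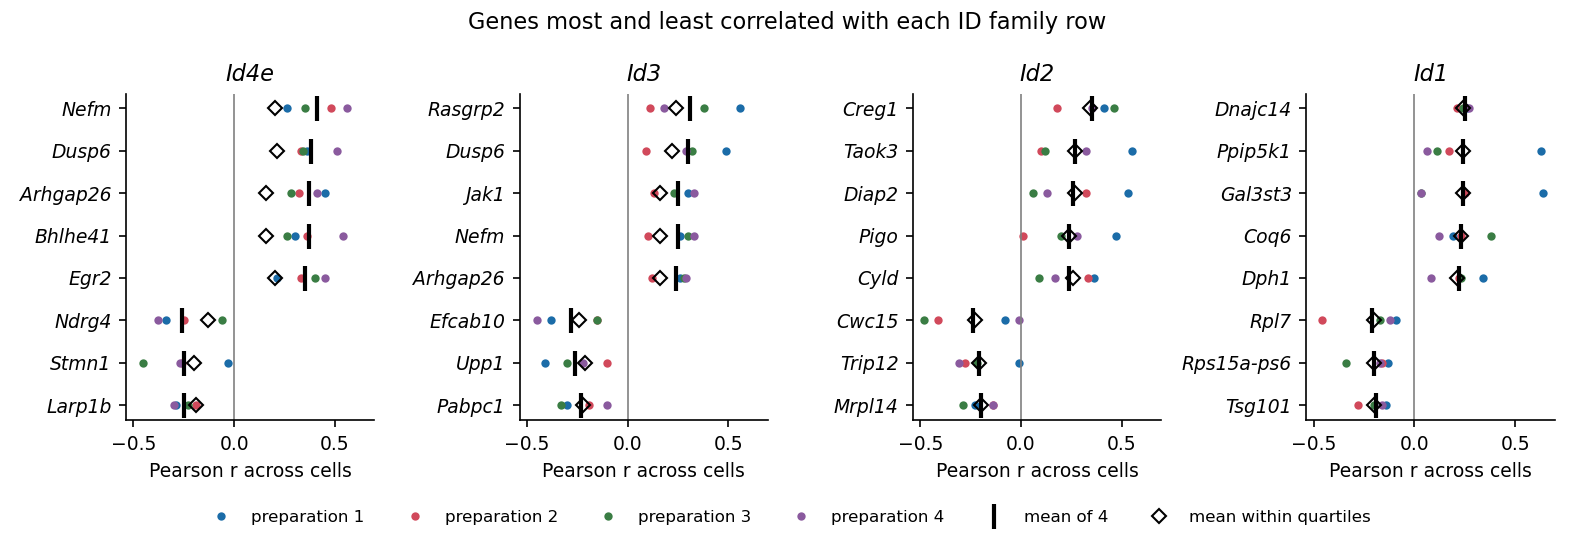
Pearson's r across cells between each row and the 5 genes with the highest and 3 with the lowest mean, with coloured points for the 4 preparations, a black bar for their mean and an open diamond for the mean within quartiles. For Id4e the diamonds of the 5 highest genes lie at 0.16 to 0.21, below the bars at 0.35 to 0.41, whereas for Id2 and Id1 bars and diamonds lie close together.

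The machinery that induces ID genes was then described from lists of pathway members. Of the BMP and TGF-beta ligands 1 of 14 passed the minimum, Bmp7, with Q1 minus Q4 at -0.11 (SE 0.34, limma adjusted p = 0.913). Bmp4 and Bmp2, known inducers of ID genes, were each detected in 7 cells. Of the receptors 7 of 12 were tested, led by Bmpr1a, a type I BMP receptor, in 183 cells with a difference of 0.67 (SE 0.37, adjusted p = 0.380), and Acvr2b with -0.76 (SE 0.35, adjusted p = 0.269). SMAD transducers were widely detected, Smad2 in 254 cells, Smad4 in 180 and Smad1 in 131. Their differences between Q1 and Q4 ran from -0.61 (Smad3, adjusted p = 0.291) to 0.16 (Smad1, adjusted p = 0.875). Of 3 other BMP target genes tested, Atoh8, Hey1 and Gata2, the differences were 0.35, -0.30 and -0.07. Over these 16 ligands, receptors, transducers and other targets limma called 0 in the trend and 0 between Q1 and Q4. At an unadjusted p under 0.05 there were 1 and 2. Of all tested genes 4.51% and 3.25% were called, so 0 of 16 does not set these genes apart from the rest.

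Among inhibitors of the pathway, several of which are themselves known BMP or TGF-beta targets, 3 of 9 tested rose with brightness and 0 fell. Of all tested genes 3.77% rose and 0.740% fell. The list's median difference between Q1 and Q4 was 0.68, against 0.10 over all tested genes. This list too was chosen with earlier results of these data known, so its count and median are a description. Fst, follistatin, which binds activin and some BMPs, rose from 0.82 ± 0.44 (SD, n = 4) in Q4 to 2.88 ± 0.37 in Q1, a difference of 2.06 (SE 0.34, limma adjusted p = 0.000586). Smad6, which blocks BMP receptor signalling, rose from 0.09 ± 0.12 to 1.15 ± 0.67, a difference of 1.07 (SE 0.25, adjusted p = 0.0161). The call of Smad6 between Q1 and Q4 was lost in 7 of 13 alternatives. The difference was 0.78 without preparation 2 (adjusted p = 0.131), 1.03 without preparation 3 (adjusted p = 0.106), 1.01 with the covariate for detected genes (adjusted p = 0.141) and 0.89 when the means were centred (adjusted p = 0.0549). It was 1.07 without the minimum (adjusted p = 0.0849) and without limma's trend and robust options (adjusted p = 0.0804), and 2.14 from log2 of the mean FPKM (adjusted p = 0.139). Tgif1, a corepressor of SMAD2 and SMAD3, differed by 1.59 (SE 0.44, adjusted p = 0.0445), and its call was lost in 12 of 14 alternatives, among them each that left out a preparation (1.53 to 1.69, adjusted p from 0.106 to 0.134). Smad7 and Bambi did not pass, with 0.68 (adjusted p = 0.240) and 0.77 (adjusted p = 0.172). Across cells the mean r with Id4e was 0.24 for Fst and 0.24 for Smad6, and 0.11 for each within quartiles. With Id3 it was 0.12 and 0.10, and 0.07 and 0.04 within quartiles.

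Among the binding partners of ID proteins the E protein genes were broadly detected. Tcf12 was found in 225 cells, Tcf3 in 207 and Tcf4 in 186, so each was detected in more cells than any ID row. Their differences between Q1 and Q4 were 0.13, 0.42 and 0.30 (limma adjusted p from 0.633 to 0.908). None was called, against 3.25% of all tested genes, and 0 had an unadjusted p under 0.05. The summed E protein level had a mean r of 0.02 with Id4e and -0.01 with Id3.

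Of 7 tissue bHLH factors tested, Sohlh1, a factor of spermatogonial differentiation, fell with brightness. It stood at 4.11 ± 0.77 (SD, n = 4) in Q1 and 6.09 ± 0.56 in Q4, a difference of -1.98 (SE 0.35, limma adjusted p = 0.00132), the opposite direction to Id4e and Id3. With the number of detected genes as a covariate it was -1.69 (adjusted p = 0.0571). Neurog3, a bHLH factor of progenitor spermatogonia, stood at 0.07 ± 0.08 and 0.65 ± 0.27, and its difference of -0.58 did not pass (adjusted p = 0.0790). Twist1 rose in the trend by 0.29 (adjusted p = 0.0454), a call lost in 10 of 14 alternatives, among them each that left out a preparation (0.25 to 0.35, adjusted p from 0.0537 to 0.220). Of 8 other bHLH factors Bhlhe41 alone was called, by 2.09 (SE 0.34, limma adjusted p = 0.000552). It was also the fourth gene by correlation with Id4e. Beside both bHLH lists, the share of all tested genes called was 4.51% in the trend and 3.25% between Q1 and Q4.

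**Figure D5:**
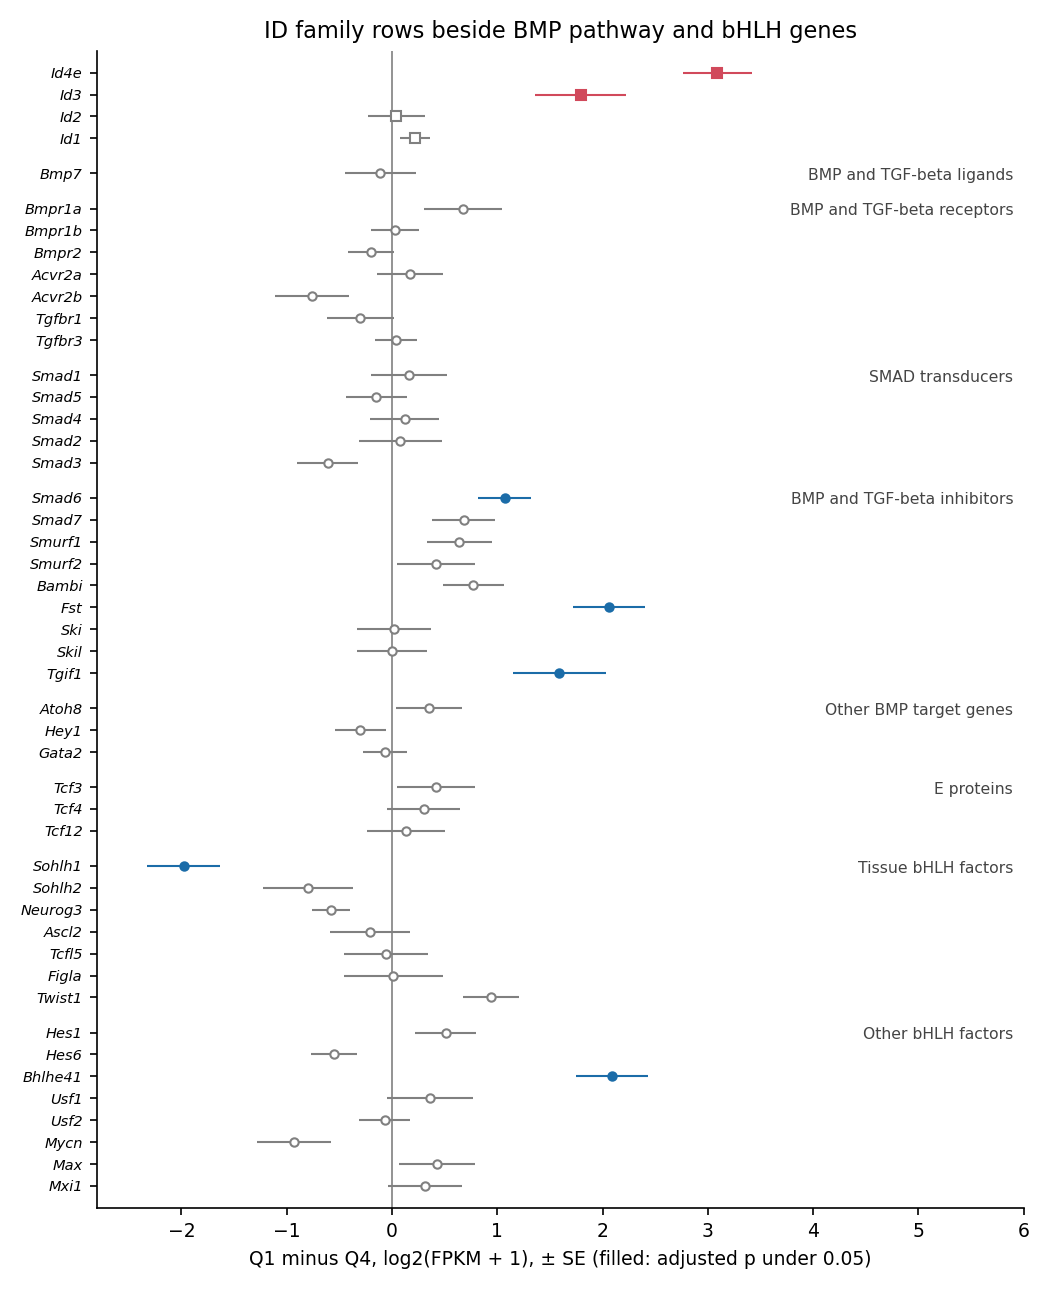
Difference between Q1 and Q4 in mean log2(FPKM + 1), with the SE from limma, for the ID rows (squares) and the tested genes of BMP signalling and of bHLH lists (circles), filled where the adjusted p was under 0.05. Id2 and Id1 are from the fit without the minimum. Id4e at 3.09 and Id3 at 1.79 lie to the right with Fst, Tgif1, Smad6 and Bhlhe41, Sohlh1 lies to the left, and ligands, receptors and SMAD transducers straddle 0.

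Genes of ID protein turnover, Usp1, Wdr48, Fzr1 and Smurf2, had differences from -0.06 to 0.42 between Q1 and Q4. Of these 4, limma called 0, against 3.25% of all tested genes, and 0 had an unadjusted p under 0.05. Of 6 cell cycle partners and targets, 1 was called in the trend, against 4.51% of all tested genes. It was Cdkn1a, an inhibitor of cyclin-dependent kinases that E proteins are known to induce, at 0.25 (SE 0.07, limma adjusted p = 0.0411). That call was lost in 11 of 14 alternatives, among them those without preparation 1 (0.29), 2 (0.16) or 3 (0.23). Of 12 immediate early genes, which respond quickly to growth factors and to cell handling, Fos, Egr2 and Zfp36 rose in the trend and 0 fell. Of all tested genes 3.77% rose and 0.740% fell. The lists were chosen with earlier results of these data known. Fos had a slope of 0.73 (SE 0.14, adjusted p = 0.00183) and Egr2 one of 0.88 (SE 0.12, adjusted p = 3.73e-05), while Egr1 had 0.22 (adjusted p = 0.243). The Fos call was lost with a covariate for detected genes (0.54, adjusted p = 0.103) and from log2 of the mean FPKM (0.39, adjusted p = 0.0543). Zfp36 had a slope of 0.47 (adjusted p = 0.0272), lost in 8 of 14 alternatives, among them those without preparation 1 (0.37), 2 (0.45) or 3 (0.44). The summed immediate early level had a mean r of 0.24 with Id4e (0.11 within quartiles), 0.13 with Id3 (0.06), 0.01 with Id2 and 0.04 with Id1.

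Of the stem cell associated genes 8 of 10 rose with brightness and 0 fell, and of those associated with differentiation 5 of 9 fell and 0 rose, where 3.77% of all tested genes rose and 0.740% fell. Both lists were put together with the brightness results of these cells known, so these counts are a description and no independent evidence of direction. Between Q1 and Q4 the same counts were 8 of 10 and 5 of 9, against 2.72% higher and 0.528% lower over all tested genes. The trend of Stra8, a meiotic gene induced by retinoic acid, was -0.50 (limma adjusted p = 0.0325), and its call was lost in 8 of 14 alternatives, including those without preparation 1 (-0.41), 3 (-0.47) or 4 (-0.46). Rarg, a retinoic acid receptor, had -0.38 (adjusted p = 0.00557), lost in 3, without preparation 3 (-0.35), without preparation 4 (-0.37) and from log2 of the mean FPKM (-0.51). Of the stem cell genes Lhx1 lost its trend call with the covariate for detected genes (0.34) and Foxc2 from log2 of the mean FPKM (0.74). Cell by cell, Id4e had a mean r of 0.36 with the summed stem cell list (0.16, 0.42, 0.41 and 0.45 in preparations 1 to 4) and Id3 of 0.28 (0.39, 0.07, 0.26 and 0.39). Within quartiles these were 0.15 and 0.18. Id2 stood at -0.13 and Id1 at 0.02. With the summed differentiation list the mean r was -0.28 for Id4e (-0.14 within quartiles), negative in all 4 preparations, -0.08 for Id3, 0.06 for Id2 and 0.05 for Id1. Among single genes of the stem cell list, Etv5, a transcription factor downstream of GDNF, had a mean r of 0.34 with Id4e and 0.21 with Id3, and 0.16 and 0.11 within quartiles. Gfra1, the GDNF co-receptor, had 0.28 and 0.14 (0.09 and 0.06 within quartiles), and Tcl1 had 0.33 and 0.25 (0.15 and 0.16). Correlation with the number of genes per cell was -0.03 for Id4e and -0.06 for Id3, and with the implied depth 0.12 and 0.02.

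Of all summed marker lists, those of germ cells and of spermatids had the smallest p for a slope with brightness. For the other lists the exact permutation p ran from 0.283 (Sertoli) to 0.775 (endothelial). These p-values were not adjusted over the lists, and for both sums the preparation means of Q1 and Q4 overlapped. The germ cell sum fell by 0.0514 on the log2 scale per quartile towards brighter cells (exact permutation p = 0.0138), with preparation means from 2358 to 2892 FPKM in Q1 and from 2619 to 3195 in Q4. The spermatid sum rose by 0.487 on the log2 scale per quartile (exact permutation p = 0.00285), with preparation means from 53.1 to 93.1 FPKM in Q1 and from 19.2 to 69.8 in Q4. The mean r of the spermatid sum was -0.01 with Id4e, 0.08 with Id3, -0.01 with Id2 and 0.07 with Id1. Id4e was detected in 3 of the 11 cells that matched the spermatid list, Id3 in 5 and Id2 and Id1 in 0. Without all 25 matching cells the Id4e slope was 1.01, and with the number of detected genes as a covariate it was 0.94 (limma adjusted p = 0.00133).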

How the data were processed

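Single cells were sequenced from polyA RNA after SMARTer cDNA synthesis on C1 chips, per the labels' protocol. The deposited table was taken to hold FPKM values, since the submitters' processing notes name TopHat, Cufflinks, FastQC and Picard for mm10 and GRCm38, without versions, and its header names no unit. No count test was run, since the values are not counts.

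The number in a cell's title was read as 1 of the 4 preparations of the design, and quartiles come from the labels. Per preparation and quartile the mean of log2(FPKM + 1) over cells was taken, 16 means per gene, which understates changes of low genes. limma 3.58.1 in R 4.3.3 (mean-variance trend, robust) was fitted to the 10411 genes at 1 FPKM or more in at least 30 cells, with preparation as a block, and p-values were adjusted by Benjamini-Hochberg at a threshold of 0.05. Id2 and Id1 come from a fit without that minimum (17752 genes). Preparations pair the quartiles because they share animals and chip, and deviations within a preparation correlated at 0.0112 to 0.360 (median 0.129) across genes. Other p-values are exact two-sided permutations of quartile labels within preparations (331776 relabelings, smallest p 6.03e-06). The scripts were tested on simulated data.

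A cell matched another cell type when at least 3 genes and 50% of that list's genes reached 5 FPKM. Implied depth took the 3rd percentile of values times length over 3784 single-transcript genes as 1 fragment. Genes named are the 5 highest and 3 lowest correlates of each row, without predicted genes or names that match no symbol, and from the lists those called and others with the smallest p. E-box, SMAD and Sp/KLF motifs were searched on both strands in RefSeq promoter windows, which held entries for Id2 and Id3. Members and lists were chosen with earlier results of these data known. Id4 and the mitochondrial genes are not analysed here. Alternatives were the pseudocount, the minimum, the block, the detection threshold, a covariate, centring, the variance model and leaving out matching cells or 1 preparation.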

Additional observations from a re-analysis of the deposited data

Results flagged for a closer look

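In 4 of the 16 sets of 4 preparation means (4 rows by 4 quartiles), 1 preparation stood apart from the other 3 by more than Dixon's 95% limit, which chance exceeds in about 1 in 20 sets. For Id4e in Q1, preparation 2 was at 4.84 while the others lay between 3.51 and 3.62. For Id2 in Q4, preparation 4 was at 1.39 and the others between 0.00 and 0.06. For Id2 in Q2, preparation 1 was at 0.08 and the others between 0.44 and 0.48. For Id1 in Q4, preparation 4 was at 0.40 and the other 3 were at 0.00. In those Q4 sets of Id2 and Id1 nearly all other values are 0, so any detection sets 1 preparation apart and the rate of 1 in 20 does not hold for them.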

How the results depend on the processing

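Id4e kept its calls in the trend (0.62 to 1.60) and between Q1 and Q4 (1.90 to 4.93) in all 14 alternatives. The cause of each lost call was not tested. Fitted without the replicate block, the Id3 trend (0.57) and Q1 minus Q4 (1.79) lost their calls, as did Id4e Q1 minus Q2 (2.00), and the genes called fell to 177 in the trend and 99 between Q1 and Q4. Without the minimum on detected cells the same 3 calls were lost (0.57, 1.79 and 2.00), with 274 and 177 genes called. From log2 of the mean FPKM the Id3 values were 0.85 and 2.70, Id4e Q1 minus Q2 was 1.22 and Q1 minus Q3 was 1.99, none past the threshold, with 113 and 80 genes called. With detected genes as a covariate Id4e Q1 minus Q2 (2.00) was lost, Id3 Q2 minus Q4 (1.92) passed, and 197 and 135 genes were called. Without limma's trend and robust options the Id3 trend (0.57) had an adjusted p of 0.0504. With detection at 0.1 FPKM the Id4e level in detecting cells (0.378) passed. Leaving out 1 preparation at a time gave an Id3 trend of 0.41 to 0.74 and Q1 minus Q4 of 1.30 to 2.22, Id4e Q1 minus Q2 of 1.64 to 2.27, and 176 to 354 genes called in the trend and 137 to 270 between Q1 and Q4. The slope of the share of cells then ran from 5.51 to 9.64 for Id3, from -2.20 to 1.48 for Id2 and from 1.35 to 2.90 for Id1. Slope differences ran from 0.355 to 0.758 (Id3 minus Id2), 0.339 to 0.625 (Id3 minus Id1) and -0.165 to 0.0314 (Id2 minus Id1). The alternatives for single pairs of quartiles were chosen after seeing the data. Id2 and Id1 were detected in 28 and 20 cells, and these numbers limit the precision of their slopes.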
